A study of Homo sapiens with 14 samples.

Results

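The lists described here are the 4 Nalm-6 DNA-RNA hybrid immunoprecipitation sequencing (DRIP-seq) peak lists made from DNA that was digested with RNase H1 (RNH1) before the pull-down, 4 of the 14 samples of the series. They were chosen by their labels, which name RNaseH1, while the methods name the enzyme only as RNase H. Both genotypes have 2 replicates: WT, which carries SF3B1 K700K and so keeps the normal lysine, and MT, which carries the SF3B1 K700E mutation. Nalm-6 is a human leukemic B cell line, and the groups are isogenic derivatives of it that share the treatment and differ by label only in the SF3B1 allele. Whether a line was 1 clone and whether replicates were separate cultures is not given in the sources used here. Peak lists hold no expression values, so the B cell label could not be checked against marker genes. The question was where the genome kept immunoprecipitated signal after RNH1 in MT and not in WT, on chromosomes 1 to 22 and X.

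An R-loop forms when RNA pairs with the template strand of DNA and displaces the other strand. SF3B1 is a subunit of the U2 small nuclear ribonucleoprotein, which recognises the branch site of introns, and K700E is its recurrent change in myeloid and lymphoid neoplasms. In DRIP-seq, genomic DNA is cut with restriction enzymes and the fragments that hold a hybrid are pulled down with the S9.6 antibody. RNase H enzymes cut the RNA strand of a hybrid, so a digested aliquot shows how much of the signal needs that RNA. The word resistant is used below only for a peak called in a digested aliquot.

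Many peaks end at the restriction sites used to fragment the DNA, as the strongest regions called in a single genotype show at the sequence level. Of these, 7 are printed here as 160 bases of the plus strand of GRCh38 around the region's edge, with each recognition site of the 5 enzymes (HindIII, EcoRI, BsrGI, XbaI and SspI) in capitals. The first 4 had a peak in both MT lists and neither WT list, and the last 3 a peak in both WT lists and neither MT list.

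XYLT1 intron, chr16:17144017-17144176: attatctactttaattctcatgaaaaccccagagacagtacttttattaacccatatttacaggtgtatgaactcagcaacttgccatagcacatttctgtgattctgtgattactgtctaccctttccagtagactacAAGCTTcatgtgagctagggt
RASAL2 intron, chr1:178466755-178466914: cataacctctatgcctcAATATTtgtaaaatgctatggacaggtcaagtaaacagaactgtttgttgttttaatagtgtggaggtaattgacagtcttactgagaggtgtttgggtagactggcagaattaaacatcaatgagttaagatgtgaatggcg
MIR99AHG intron, chr21:16445418-16445577: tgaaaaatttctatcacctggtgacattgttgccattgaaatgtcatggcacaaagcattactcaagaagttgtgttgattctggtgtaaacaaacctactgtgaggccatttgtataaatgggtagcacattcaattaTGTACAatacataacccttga
WWOX intron, chr16:79122583-79122742: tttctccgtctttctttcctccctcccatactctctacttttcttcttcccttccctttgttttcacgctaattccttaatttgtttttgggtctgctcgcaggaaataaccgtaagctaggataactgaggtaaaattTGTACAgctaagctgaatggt
intergenic, chr2:81116495-81116654: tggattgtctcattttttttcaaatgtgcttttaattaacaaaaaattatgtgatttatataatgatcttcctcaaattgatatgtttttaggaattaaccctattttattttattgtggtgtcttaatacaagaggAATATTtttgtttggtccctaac
OSBPL11 intron, chr3:125554482-125554641: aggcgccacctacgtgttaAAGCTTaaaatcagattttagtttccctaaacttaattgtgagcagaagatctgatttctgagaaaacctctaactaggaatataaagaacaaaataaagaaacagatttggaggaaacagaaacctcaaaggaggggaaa
intergenic, nearest coding gene TFAP2B, chr6:51071596-51071755: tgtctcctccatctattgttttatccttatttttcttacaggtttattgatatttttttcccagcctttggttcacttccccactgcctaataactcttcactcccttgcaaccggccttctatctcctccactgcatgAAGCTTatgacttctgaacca

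Of the 30 regions named below, 29 had an edge 0 or 4 bases from the cut position of a recognition site, and none of the 30 held a whole site. Where the start of a region was the edge at the cut it lay at 0 bases in 14 of the 14 such regions. Where it was the end, it lay 4 bases past the cut in 11 of 12 regions at a cutter that leaves an overhang, and at 0 bases in 4 of 4 at the blunt cutter SspI. The exception, near SMIM31, ended 76 bases short of a cut. Their fragments were 332 to 2469 bases long, with a median of 712.

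After RNH1, the WT lists held 34857 and 77391 peaks and the MT lists 201117 and 198158. Both MT lists lay above both WT lists, and the WT lists differed from each other by more than the MT lists did. The means were 56124 ± 30076 in WT and 199637.5 ± 2092 in MT (SD, n = 2), a 3.56-fold difference and a surplus of 143513.5 peaks (log2 ratio 1.83 ± 0.77, exact permutation test, two-sided, p = 0.333). With 2 lists against 2, no exact test can give less than p = 0.333, so no difference between these lists could pass 0.05, and each is described by whether both MT lists lay outside the range of the WT lists. The peaks covered 16.4 and 41.0 Mb in WT against 111 and 107 Mb in MT, 3.78-fold more on average. A background in reads was recovered from fold enrichment and p-value at each summit, and the lowest value of a list was taken as its level. This background level was 1.62 and 2.17 in the WT lists and 2.76 and 2.55 in the MT lists. It moved with genotype. The recovered summit reads of all lists were thinned to the lowest of these levels, without calling peaks anew. That left 34857 and 67590 peaks for WT and 165864 and 162643 for MT. Without WT replicate 1 the log2 ratio was 1.37, and without WT replicate 2 it was 2.52. The undigested aliquots of the same lines gave 123582 and 130928 peaks for WT and 253744 and 295970 for MT, so both MT lists were longer there as well. The paper called its bona fide R-loop peaks against the digested aliquots. Whether the signal left in them is hybrid was not tested. In a bulk preparation, more cells carrying such signal and more of it per cell cannot be told apart.

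**Figure D1:**
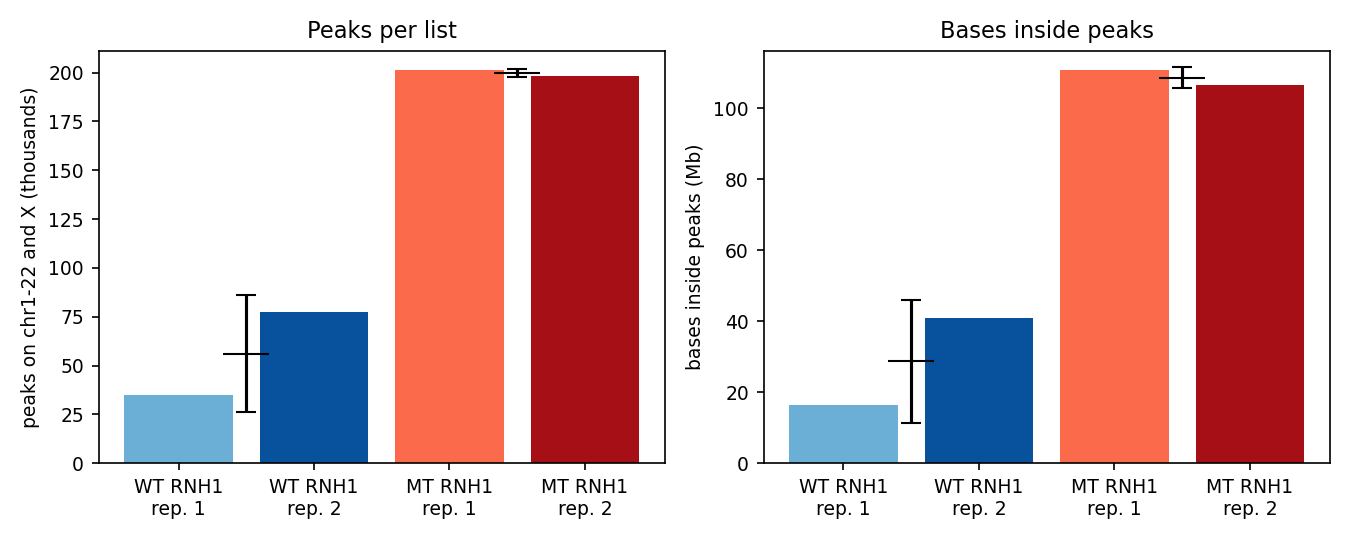
The left panel plots the number of resistant peaks on chromosomes 1 to 22 and X (axis in units of 1000) and the right panel the bases inside them in Mb, as 1 bar per list, with the mean and SD of each genotype (n = 2) as a line and whiskers between its bars. Both MT bars stand at 198158 peaks or more and both WT bars at 77391 or fewer.

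Split at a fold enrichment of 5, the surplus resembled the lists themselves, but finer classes of strength differed. By width it was slightly longer than the WT peaks. Fold enrichment is the pileup at the summit over the local background as the peak caller wrote it. Peaks of fold enrichment under 5 were 51.5% of the surplus, 47.7% and 57.2% of the WT peaks and 50.6% and 54.03% of the MT peaks. Peaks shorter than 500 bases were 57.0% of the surplus, 69.6% and 60.4% of the WT peaks and 58.0% and 59.5% of the MT peaks. Peaks with fold enrichment under 3 numbered 55 and 860 in WT against 6769 and 6097 in MT. The ratio of the means was 14.1-fold, but 7.48-fold without WT replicate 1 and 117-fold without WT replicate 2. At 15 or more they numbered 325 and 457 against 3189 and 2241, 6.94-fold, with 5.73-fold to 8.35-fold when any 1 list was left out. Between 4 and 5 the ratio was lowest, at 2.63-fold. Peaks shorter than 300 bases were 2.48-fold more numerous in MT. Peaks of 1000 to under 2000 bases numbered 1500 and 5157 in WT against 16415 and 14242 in MT, 4.61-fold, with 2.97-fold without WT replicate 1 and 10.2-fold without WT replicate 2. In every class of strength and width the ratio was smaller without WT replicate 1 and larger without WT replicate 2. The median width was 381 and 436 bases in WT, compared with 449 and 441 in MT, a difference of 36.5 ± 39.3 bases that did not exceed its own SD (exact permutation test, p = 0.333). Without WT replicate 1, the shallowest list, it was 9 bases. In that list 25.5% of the peaks were under 300 bases against 13.8%, 12.2% and 12.1% in WT replicate 2 and the MT lists.

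Restriction fragments of 1 to 3 kb carried most of the surplus. The genome was cut at the sites of the 5 enzymes into 5720165 fragments with a median length of 318 bases, an analysis chosen after the peak lists had been seen. In every list 94.6% to 95.8% of the peaks had at least 90% of their bases inside 1 fragment, and 51.5% to 53.7% had an edge within 25 bases of a cut. The median peak covered 37.02% to 39.6% of its fragment. A recognition site lay in 1.58% and 1.92% of WT peaks and 3.29% and 3.14% of MT peaks, against 59.0% of 500-base genome windows. Of fragments of 1500 to under 2000 bases, 2.54% and 6.35% held a peak summit in WT against 18.95% and 18.7% in MT, a 4.24-fold difference. Fragments of 1000 to under 1500 bases gave 4.19-fold and those of 2000 to under 3000 bases 3.86-fold. The ratio was smaller on either side, 1.33-fold at 250 to under 500 bases and 1.55-fold at 5000 bases or more, where WT replicate 2 came to 12.03% and the MT lists to 13.4% and 12.5%. Fragments of 1 to 2 kb were 11.2% of all fragments and 29.9% of the bases and held 53.5% of the surplus, whereas fragments under 500 bases were 65.1% of all fragments and held 0.907% of it.

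**Figure D2:**
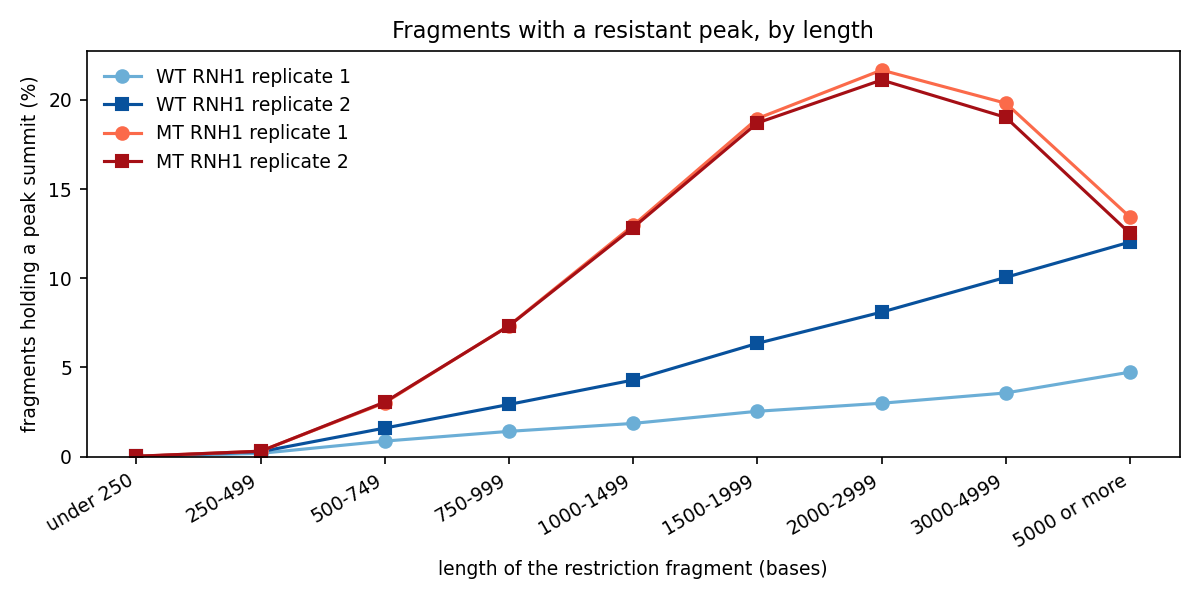
The x axis gives classes of restriction fragment length in bases and the y axis the percent of the fragments of a class that held a peak summit, with 1 line per RNH1-treated list. The MT lines are highest at 2000 to under 3000 bases, at 21.7% and 21.1%, and come close to WT replicate 2 at 5000 bases or more, while both WT lines are highest in that last class.

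Counted by fragment rather than by merged region, 98652 of 261781 fragments with a summit in any list had a summit in both MT lists and neither WT list (37.7%). The reverse held for 7569 (2.89%). The recovered summit reads were also thinned to the lowest background of the 4 lists, without calling peaks anew. The ratios by fragment length then ran from 1.21-fold to 3.91-fold, and the class of 1500 to under 2000 bases was still the highest.

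Between classes of base composition the ratio of MT to WT ran from 0.086 to 5.02. The mean GC content of the peaks was 38.6% and 39.6% in the WT lists and 41.0% and 40.9% in the MT lists, a difference of 1.83 ± 0.72 percentage points (exact permutation test, p = 0.333). Peaks of 35 to 50% GC made up 91.9% of the surplus, while windows of that composition are 63.4% of the genome. The ratio was 4.41-fold at 35 to 40% GC, 5.02-fold at 40 to 45% and 4.41-fold at 45 to 50%. In AT-rich DNA the order was the opposite. Peaks of 20 to 25% GC, a class that also takes any lower value, numbered 217 and 304 in WT, compared with 25 and 20 in MT. Peaks of 25 to 30% GC numbered 2993 and 5115 in WT against 1594 and 1646 in MT. Both WT lists lay above both MT lists in these 2 classes although the MT lists were several times longer. At 60 to 65% GC the means were 261 and 251 and the lists overlapped.

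The same contrast stood within fragments of 1 to 3 kb. Here the lowest class, 25 to 30% GC, also takes any fragments below it, and the highest, 60 to 65%, any above it. At 35 to 40% GC, 2.82% and 6.81% of such fragments held a summit in the WT lists and 26.8% and 26.6% in the MT lists, 5.54-fold. At 25 to 30% GC the shares were 6.72% and 12.9% in WT, compared with 5.51% and 5.87% in MT, 0.58-fold. At 50 to 55% GC the ratio was 1.32-fold and at 60 to 65% it was 0.48-fold. Thinning to equal background gave 5.08-fold at 35 to 40% and 0.51-fold at 25 to 30%. The undigested aliquots of the same lines held this contrast too: at 25 to 30% GC the untreated shares were 24.3% and 23.5% in WT against 3.87% and 6.26% in MT, and at 35 to 40% they were 11.2% and 11.5% in the WT lists and 29.2% and 33.5% in the MT lists. GC content, fragment length and background thus moved together with genotype, and their part in the surplus was not tested.

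**Figure D3:**
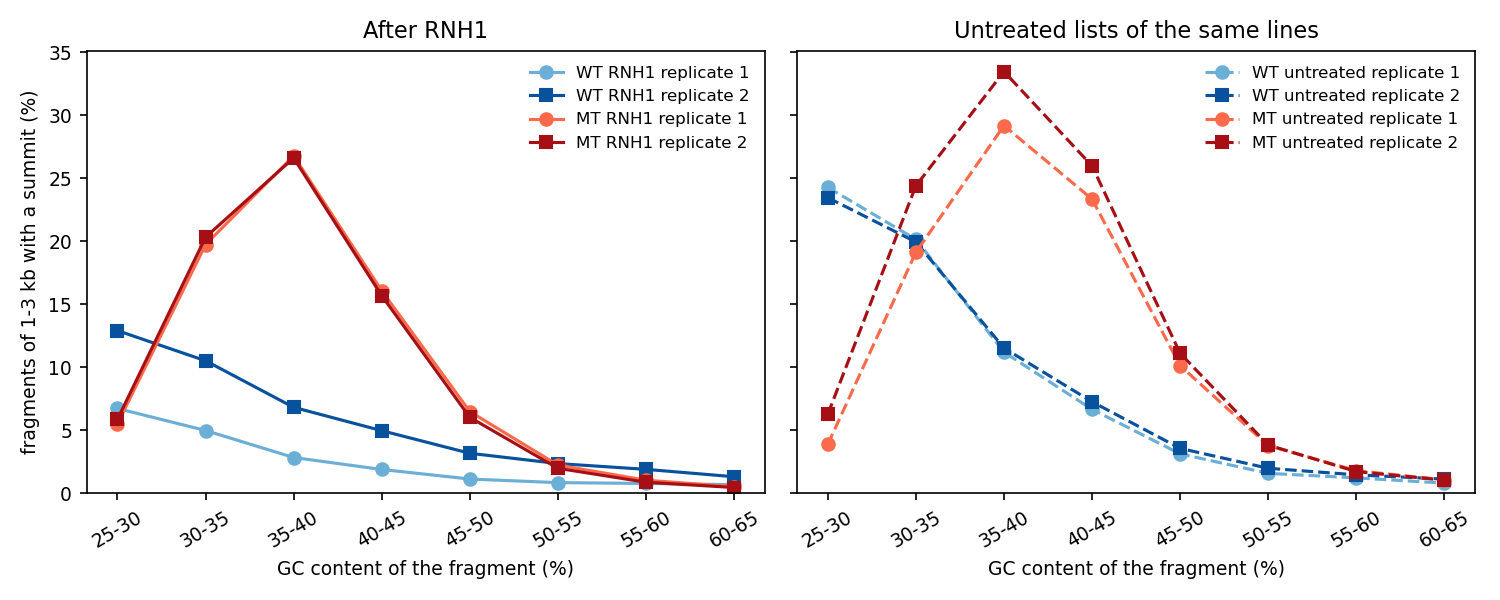
The x axis gives the GC content of restriction fragments of 1 to 3 kb in percent and the y axis the percent of them with a peak summit, with 1 line per list, after RNH1 on the left (solid) and untreated on the right (dashed). In both panels the MT lines are highest at 35 to 40% GC and the WT lines at 25 to 30%, where they lie above the MT lines. The lowest and the highest class also take any fragments beyond them.

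Short sequence features were compared as shares of the peaks of each list. A run of 4 tracts of at least 3 G on either strand with 1 to 7 bases between them, the kind that can fold into a quadruplex, lay in 3.96% and 4.61% of WT peaks and 4.68% and 4.35% of MT peaks, and the lists overlapped. In 500-base genome windows the share was 5.08%. Runs of 8 TA units were found in 0.241% and 0.242% of WT peaks and 0.099% and 0.113% of MT peaks, and runs of 6 GA units, on either strand, in 2.01% and 2.10% against 1.55% and 1.45%. Windows held these in 0.535% and 1.02% of cases. Runs of 8 CA units, on either strand, went the other way, with 1.27% and 1.51% in WT, compared with 1.72% and 1.63% in MT, beside 1.45% of windows. The absolute GC skew is the imbalance of G and C on a strand that accompanies many R-loops. It averaged 0.147 and 0.143 in WT against 0.130 and 0.129 in MT, beside 0.105 in genome windows. Width and GC content of the peaks differed too, and their part in the skew was not tested.

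By gene feature, the surplus was spread almost as the WT peaks themselves. Introns held 45.3% and 45.6% of the peaks in WT and 46.5% in each MT list, and intergenic DNA 37.4% and 36.3% against 36.7% in each MT list. Introns gave 46.9% of the surplus, intergenic DNA 36.8% and promoters 13.6%. These classes are 41.7%, 35.2% and 18.9% of genome windows. A promoter here is the 3 kb on either side of any annotated start site, and its share was lower in MT: 14.4% and 15.2% in WT against 13.97% and 13.9%, a difference of −0.84 ± 0.55 percentage points (exact permutation test, p = 0.333). The number of promoter peaks was nonetheless 3.32-fold higher in MT. Peaks in 5' UTRs, a small class, numbered 26 and 70 in the WT lists and 242 and 239 in the MT lists, 5.01-fold, and those in 3' UTRs and other exons were 3.41-fold and 3.31-fold more numerous.

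The gene biotypes that held many peaks gave similar ratios. Protein-coding genes held 42.1% and 43.2% of the peaks in WT and 42.7% in each MT list, a 3.55-fold difference in number. The ratio was 3.62-fold in lncRNA genes, 3.68-fold in pseudogenes and 3.54-fold outside genes. Immunoglobulin and T cell receptor segments, which Nalm-6 as a B cell line rearranges in part, held only 2 and 4 peaks in WT, compared with 14 and 13 in MT.

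The ratio of peak densities widened with gene length. In protein-coding genes under 5 kb the density was 4.63 and 14.6 peaks per Mb in WT against 23.7 and 22.6 in MT, 2.41-fold. It reached 13.04 and 28.3 per Mb in the WT lists and 77.4 and 76.7 in the MT lists for genes of 500 kb or more, 3.73-fold. All 322 genes of that length held a region seen only in MT, compared with 2.93% of genes under 5 kb. Longer genes offer more sequence in which a region can fall, so these shares are not a rate.

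Among the 21385 protein-coding and lncRNA genes with a peak in any list, 13893 had more peaks in both MT lists than in both WT lists (65%) and 257 had fewer (1.2%). Expressed as a share of each list's peaks, 7196 genes were higher in both MT lists (33.6%) and 4211 lower (19.7%). A region seen only in MT lay in 9250 of 19970 protein-coding genes (46.3%), and a region seen only in WT in 2203 (11%).

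The genes with most MT-only regions were all over 1000 kb long, and several have roles in neurons. DLG2, a synaptic scaffold gene of 2173 kb, held 36 and 86 peaks in WT, compared with 221 and 210 in MT and had 116 regions only in MT. CNTNAP2, which encodes a neurexin-family adhesion protein, held 25 and 72 against 187 and 196, with 106 such regions. AGBL4, a deglutamylase of tubulin, held 20 and 50 against 170 and 164, with 102. EYS, a photoreceptor matrix protein gene, also had 102 regions, and PTPRD, a receptor tyrosine phosphatase gene, had 97. MACROD2, PCDH15, ANKS1B, CTNNA3 and NRXN3 followed with 92, 84, 83, 83 and 83. Per 100 kb these 10 genes held 4.22 to 6.84 MT-only regions. The density was 4.13 over all protein-coding genes of 500 kb or more and 4.09 over those of 1000 kb or more. The 10 were picked by their number of such regions, so a density above these values is favoured by the choice. DLG2 and PTPRD had 11 and CNTNAP2 had 10 regions only in WT, also the highest numbers, followed by CNTN5 and the axon guidance receptor gene ROBO1 with 9 each. In ROBO1 the peaks numbered 24 and 39 in WT and 82 in each MT list, which was a lower share of the MT lists.

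The gene lists examined were families, pathways and lineages, chosen with earlier results of these data known. For each, the number of genes with a region only in MT is read against 46.3% of all protein-coding genes, and the ratio of summed peaks against 3.55-fold for all of them. Of protein-coding genes with a peak, 66.4% had more peaks in both MT lists. By share of the lists, 32.5% of them were higher and 20.8% lower in MT. The counts of such genes per list are read against these. Each list differs in gene length, so its count is a description.

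Genes that process R-loops held MT-only regions too. Of 31 genes, 25 had a peak, 19 held an MT-only region and 16 had more peaks in both MT lists, and the summed peaks were 22 and 56 in WT against 101 and 117 in MT, 2.79-fold. WRN, a RecQ helicase gene, held 3 and 9 peaks in the WT lists and 12 and 16 in the MT lists. RNASEH2B, a subunit gene of RNase H2, held 2 and 4 against 8 and 9. BRCA2 held 0 and 2 against 8 and 7, and FANCM, a DNA translocase gene of the Fanconi pathway, 1 and 3 against 8 and 7. As a share of the lists, 5 of the 25 were higher and 4 lower in MT.

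Of the 21 U2 snRNP and branch site genes, 14 had a peak, 8 held an MT-only region and 6 had more peaks in both MT lists, a 3.14-fold ratio of sums. SF3B1 itself, named here as the mutated gene, held 0 and 1 peaks in WT, compared with 2 and 3 in MT. DHX15, a helicase gene of spliceosome disassembly, held none in WT and 2 in each MT list. Among 13 genes whose splicing or expression the study followed, 7 had a peak, 6 held an MT-only region and the ratio of sums was 1.79-fold, below that of all protein-coding genes. EHMT1, a histone methyltransferase gene, held 2 and 8 peaks in WT against 11 and 8 in MT, and THOC1, a gene of the THO complex of mRNA export, 2 and 6 against 4 and 6, so that in both the lists overlapped. TGFBR1 held none in WT and 3 in each MT list. By share, 1 of the 7 genes was higher and 6 lower in MT, beside 32.5% and 20.8% of coding genes with a peak.

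Genes of the B lineage and of other blood lineages both held MT-only regions. Of 26 B-lineage genes 18 had a peak, 14 held an MT-only region (53.8%) and 14 had more peaks in both MT lists, 3.88-fold. BACH2, a transcription repressor gene of B cells, held 3 and 13 peaks in the WT lists and 25 and 30 in the MT lists, EBF1 held 8 and 11 against 32 and 30, and the coactivator gene POU2AF1 0 and 1 against 10 and 13. MME, the gene of the endopeptidase neprilysin, held 1 and 6 against 13 and 15. Of 18 T cell and myeloid genes 11 had a peak, 6 held an MT-only region (33.3%) and 5 had more in both MT lists, 4.62-fold on small sums of 4 and 9 in WT, compared with 28 and 32 in MT. ITGAM, a myeloid integrin gene, held 2 and 3 against 13 and 11, and CD2, a T cell adhesion gene, none in WT and 3 in each MT list.

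Gene families gave ratios on both sides of the overall value. Of 508 ZNF genes 394 had a peak, 267 held an MT-only region (52.6%) and the ratio was 3.59-fold. ZNF385D held 16 and 33 peaks in WT against 78 and 68 in MT. Of 400 olfactory receptor genes, which act mainly in olfactory neurons, 146 had a peak, 84 held an MT-only region and the ratio was 4.18-fold. OR51B5 held 0 and 7 against 25 and 19. All 34 clustered protocadherin genes with a peak held an MT-only region, with a ratio of 3.64-fold, but these genes overlap one another and share peaks. Cytosolic ribosomal protein genes gave 3.85-fold on few peaks, with 22 of 83 genes hit and 10 holding an MT-only region. Of 69 replication-dependent histone genes 7 had a peak and 4 held an MT-only region, with sums of 0 and 1 in WT against 8 and 6 in MT. Of 39 HOX genes 7 had a peak and 2 an MT-only region, with sums of 1 and 5 against 3 and 4. Of 19 HLA genes 13 had a peak and 4 an MT-only region, with sums of 5 and 7 against 13 and 16, and HLA-DMA held none in the WT lists and 4 and 6 in the MT lists. Of 408 immunoglobulin segments, pseudogene segments included, 15 had a peak and 7 an MT-only region, with sums of 3 and 2 against 14 and 10. Here a peak counts for every segment it overlaps, whereas by biotype above it was assigned to a single class, protein-coding and lncRNA genes first, and pseudogene segments counted as pseudogenes. In the histone, ribosomal protein, HOX, HLA, olfactory receptor and immunoglobulin lists, whose genes are mostly short, the share with an MT-only region was below 46.3%.

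Common fragile site genes, all 20 of them long, each held an MT-only region and had more peaks in both MT lists, 3.66-fold. Their shares were higher in MT for 8 genes and lower for 5. CTNNA3, an alpha-catenin gene, held 25 and 59 peaks in WT, compared with 169 and 166 in MT. The 15 genes often used as DRIP controls had 8 with a peak and 3 with an MT-only region, among them CLSPN, a checkpoint mediator gene, with none in WT against 6 and 4 in MT.

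**Figure D4:**
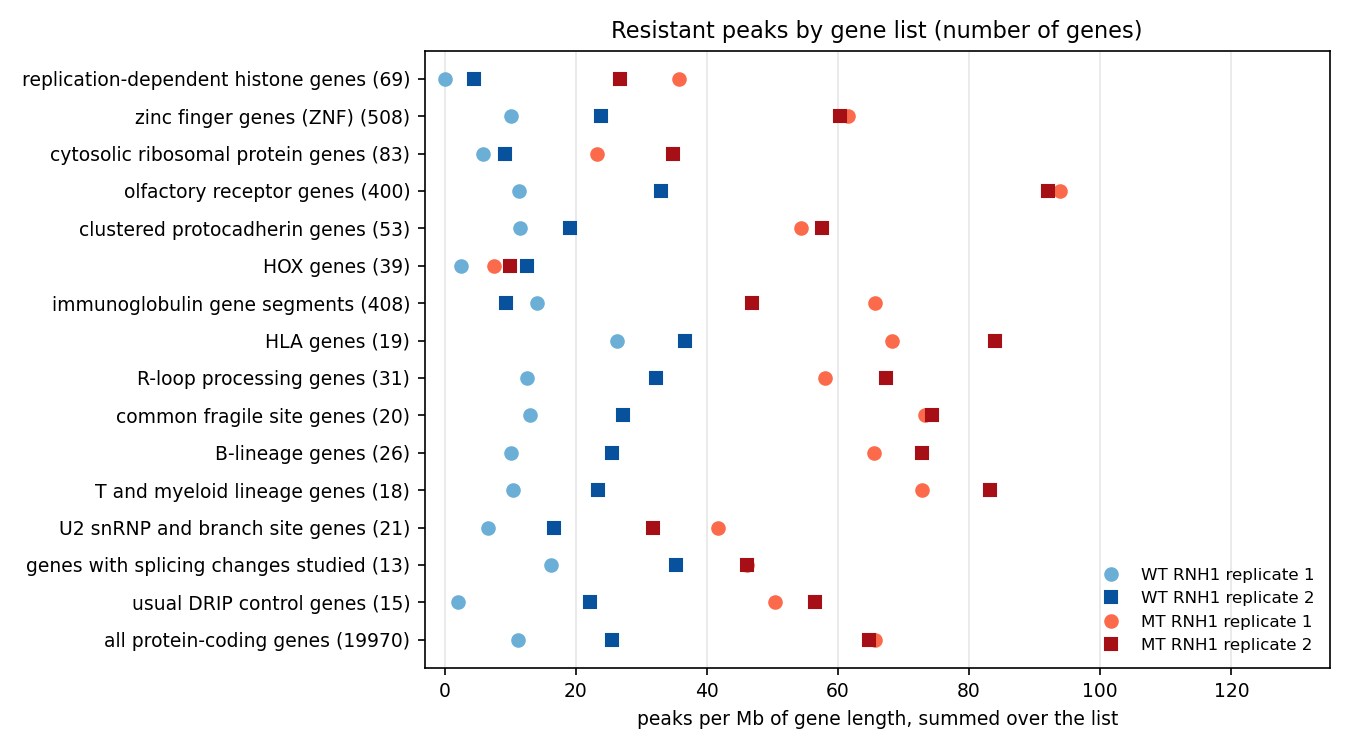
Each row is a gene list with its number of genes in parentheses, and each point is 1 RNH1-treated list, at its summed peaks per Mb of gene length. Both MT points lie above both WT points in every row except HOX genes, where WT replicate 2 is the highest of the 4.

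Across chromosomes the ratio ran from 2.45-fold on chromosome 19 to 4.87-fold on X. Chromosome 19, the most gene-dense and GC-rich of them, held 530 and 1179 peaks in the WT lists and 2173 and 2019 in the MT lists. Its share of each list was 1.52% in both WT lists and 1.08% and 1.02% in MT. Chromosomes 22, 17 and 21 were also low, at 2.77-fold, 3.13-fold and 3.25-fold. Chromosome X held 834 and 1652 peaks in WT, compared with 6022 and 6083 in MT, and its share was 2.39% and 2.13% in WT against 2.99% and 3.07% in MT. Chromosome 4 was densest in every list, with 14.3 and 31.1 peaks per Mb in the WT lists and 80.4 and 80.2 in the MT lists.

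By share, 7 of the 23 chromosomes (3, 5, 6, 8, 9, 11 and X) were above the range of WT in both MT lists, 9 were below it (1, 7, 12, 13, 16, 17, 19, 21 and 22) and 7 overlapped. When peaks were weighted so that every list had the GC composition of the genome, 7 were above and 10 below. Of these, 5 of the first (3, 5, 6, 11 and X) and 7 of the second (1, 12, 16, 17, 19, 21 and 22) were the same chromosomes as without the weights. On chromosome 19 the weighted share was 1.65% and 1.46% in WT, compared with 1.07% and 1.02% in MT, and on X 2.30% and 2.11% against 3.05% and 3.12%.

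**Figure D5:**
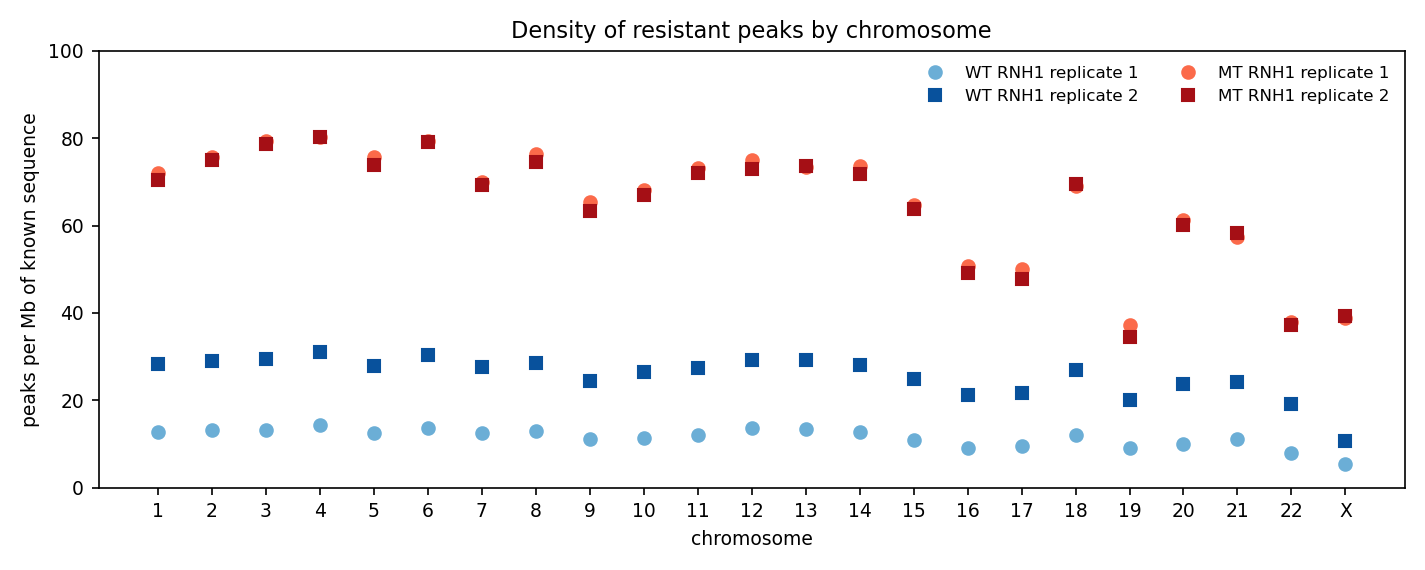
The x axis gives the chromosome and the y axis the resistant peaks per Mb of known sequence, with 1 point per list. Both MT points lie above both WT points on each of the 23 chromosomes, and the MT density is lowest on 19, 22 and X.

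At 1-Mb resolution, 2797 of 2903 bins held more peaks in both MT lists and 3 held fewer. The fold of the mean number had a median of 3.59, with 5% of bins below 2.16 and 5% above 5.55. The share was higher in both MT lists in 919 bins (31.7%) and lower in 839 (28.9%). In the middle quintile of bins by GC content, 273 were higher and 72 lower, and in the most GC-rich quintile 71 were higher and 312 lower. The most AT-rich quintile had 120 higher and 241 lower.

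The bins with the largest excess of share in MT lay on chromosomes 5, 9, 3, 11 and 14. The 1-Mb bin chr5:128000001-129000000, with FBN2, an extracellular fibrillin gene, and SLC12A2, held 9 and 22 peaks in WT against 112 and 92 in MT. The bin chr5:32000001-33000000, with PDZD2, NPR3 and ZFR, held 2 and 13 against 73 and 67, 9.33-fold. The bin chr9:5000001-6000000 with JAK2, a cytokine receptor kinase gene, held 10 and 24 against 104 and 107. The bin chr11:108000001-109000000 with ATM, the DNA damage kinase gene, held 6 and 23 against 92 and 90, and chr11:36000001-37000000 with RAG1 held 7 and 25 against 99 and 93. The others of the 10 were chr9:86000001-87000000, chr5:35000001-36000000, chr3:23000001-24000000, chr5:155000001-156000000 and chr14:58000001-59000000, at 5.72-fold to 7.04-fold.

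The bins with the largest deficit of share in MT included AT-rich DNA with few genes and GC-rich DNA near chromosome ends or on chromosome 19. The bin chr4:29000001-30000000, at 33.8% GC and without a protein-coding gene, held 34 and 42 peaks in the WT lists and 83 and 85 in the MT lists. The bin chr12:132000001-133000000, at 53.8% GC with CHFR and EP400, held 14 and 22 in WT, compared with 12 and 17 in MT, a ratio of 0.81 with overlapping lists. The bin chr7:1-1000000 held 15 and 25 against 27 and 26, and chr19:50000001-51000000 with SHANK1 held 13 and 30 against 30 and 25. The others of the 10 were chr6:141000001-142000000, chr4:5000001-6000000, chr4:189000001-190000000, chr3:114000001-115000000, chr7:79000001-80000000 and chr19:40000001-41000000, at 1.32-fold to 2.39-fold.

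Chromosome ends and centromeres differed. The terminal 5 Mb of the chromosomes held 1973 and 4544 peaks in WT against 9095 and 8980 in MT, 2.77-fold, and their share was 5.66% and 5.87% in the WT lists and 4.52% and 4.53% in the MT lists. Centromeric DNA, taken as 24 stretches rich in CENP-B boxes that span 67.1 Mb, held 58 and 79 peaks in WT, compared with 257 and 245 in MT, 3.66-fold. That was 0.13% of the peaks on average in either genotype, although these stretches are 2.22% of genome windows. The lists overlapped by share. Reads in such repeats seldom map to a single place, so few peaks there is a limit of the lists as much as a count.

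Merging the 4 lists gave 276831 regions. Of these, 104531 had a peak in both MT lists and neither WT list (37.8%) and 7702 had a peak in both WT lists and neither MT list (2.78%). A further 18188 (6.57%) had one in all 4. The MT-only regions covered 65.9 Mb with a median width of 543 bases and the WT-only regions 4.29 Mb with 493 bases. Without WT replicate 1, where a peak in WT replicate 2 and in neither MT list was enough, the regions only in WT numbered 27203. The GC content of the MT-only and WT-only regions averaged 40.6% and 35.04%. In all, 87.8% of MT-only regions lay at 35 to 50% GC, and 59.96% of WT-only regions lay under 35%. The fragments behind them had medians of 1319 and 838 bases.

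The lists were of unequal length, and the share of peaks found in another list did not follow length alone. WT replicate 1 shared fewer of its peaks with the longer MT lists, 63.5% and 61.9%, than with WT replicate 2. Of the peaks of WT replicate 1, 82.9% overlapped a peak of WT replicate 2, and 36.7% the other way, so WT replicate 2 overlapped the MT lists, at 59.95% and 58.4%, more than the shorter WT replicate 1. The MT lists shared 74.4% and 75.9%. Between 58.4% and 63.5% of WT peaks overlapped an MT list, and 10.8% to 22.9% of MT peaks a WT list. Peaks that WT lacked were weaker in MT: the median fold enrichment in MT replicate 1 was 5.12 where neither WT list had a peak, 6.39 where 1 had and 7.72 where both had. In MT replicate 2 it was 4.97, 6.001 and 7.30.

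By gene feature, the share of regions that were MT-only was 38.2% in introns and in intergenic DNA, 37.3% in exons and 35.3% at promoters, close to the 37.8% of all regions. By chromosome it was lowest on 19 at 27.4% and highest on X at 39.0%.

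Among the 10 strongest MT-only regions, 8 lay in introns, 1 in a 3' UTR and 1 near the start of a transcript. The strongest, in an intron of XYLT1, which encodes the enzyme that starts glycosaminoglycan chains, had fold enrichments of 25.1 and 24.9 in MT at chr16:17143669-17144160. It was also called in the untreated MT lists, at 19.2 and 19.7, and in no WT list. A region in an intron of RASAL2, a RAS GTPase-activating protein gene, gave 23.4 and 21.99 at chr1:178466775-178467189. The lncRNA gene MIR99AHG gave 21.6 in each at chr21:16445123-16445561, and CNTNAP2 22.6 and 21.4 at chr7:146900471-146900919. In the 3' UTR of ACP6, a mitochondrial phosphatase gene, they were 24.4 and 23.02 at chr1:147645596-147646071. WWOX, an oxidoreductase gene in a fragile site, gave 21.8 and 21.2 at chr16:79122452-79122726 and had no peak in any untreated list. The other 4 were GAPLINC, with 21.9 and 21.4, the lncRNA genes ENSG00000238280 and ENSG00000280241, with 23.99 and 22.7 and with 21.9 and 21.5, and a site whose nearest gene of this kind was ENSG00000241679, with 24.1 and 23.996.

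The 5 strongest WT-only regions had slightly lower fold enrichments, rank by rank, than the 5 strongest MT-only ones. At chr2:81116310-81116634, which is 246119 bases from the nearest protein-coding or lncRNA gene, the fold enrichments were 24.8 and 24.4 in WT. No untreated list had a peak there. An intron of OSBPL11, a lipid transfer protein gene, gave 21.96 and 21.57 at chr3:125554502-125554832. A site 223784 bases from TFAP2B, a developmental transcription factor gene, gave 23.01 and 21.2 at chr6:51071404-51071739. Both of these sites also had peaks in the untreated WT lists, at 11.7 and 13.6 for OSBPL11 and 17.6 and 19.3 for TFAP2B. The others were in the lncRNA gene ENSG00000258526, with 23.9 and 21.2, and 127426 bases from SMIM31, with 21.6 in each list.

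Regions within 1 kb of a start site were chosen over all annotated transcripts, so some are internal starts. Such a region was MT-only in 2363 protein-coding genes and WT-only in 216, of 5652 with any region there. The strongest MT-only one was at ADCY4, an adenylyl cyclase gene, with 21.1 and 21.3. RIN2, a RAB5 regulator gene, gave 19.9 and 20.3, and MEF2C, a transcription factor gene with a role in B cell development, 20.1 and 17.5. LRRC4C, a synaptic adhesion gene, gave 22.3 and 18.8, and CWC27, a spliceosome cyclophilin gene, 20.5 and 18.6, both without an untreated peak. ANK2 had 2 such regions, and GTF2A2, ATXN2 and TMEM260 completed the 10. The strongest WT-only ones were CCDC91, with 18.8 and 17.8, and GRIA2, a glutamate receptor gene, with 15.7 and 14.4, followed by DDHD1, DHRS12 and CCDC7.

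Most resistant regions were places already called without RNH1 in the same genotype. Of MT-only regions, 82.9% overlapped a peak of an untreated MT list and 20.2% one of an untreated WT list, and 16.2% (16924 regions) overlapped neither. Of WT-only regions, 83.5% overlapped an untreated WT peak and 21.9% an untreated MT peak, and 15.1% neither. Among all 276831 merged regions, 68.05% overlapped an untreated MT peak, 30.6% an untreated WT peak and 24.97% neither. Regions with a peak in all 4 lists reached 89.5% for untreated MT and 80.9% for untreated WT. The merged regions include those called in a single list, and the part of that rule in these shares was not tested. Per list, 64.5% and 57.9% of the resistant WT peaks and 64.1% and 73.0% of the MT peaks overlapped the untreated list with the same number, and the genotypes overlapped (difference 7.36 ± 7.85 percentage points, exact permutation test, p = 0.667).

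Among peaks called both before and after digestion, fold enrichment was about the same. Peaks that fell under the caller's threshold after RNH1 are not in this comparison, so it does not show how digestion changed the signal as a whole. Of the untreated peaks, 18.1% and 34.2% had a treated peak in WT against 50.9% and 48.8% in MT. The median log2 ratio of treated to untreated fold enrichment was 0.026 and 0.038 in the WT lists and 0.156 and 0.085 in the MT lists, and 52.1% and 53.2% of the pairs in WT, compared with 62.3% and 57.2% in MT were higher after treatment. Fold enrichment is relative to each library's own background and holds no spike-in, so these ratios do not give the amount of hybrid left.

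At the loci with DRIP primers that could be placed once in the genome, no list had a resistant peak over the product itself. Within 1 kb, the primers in ZNF90 had a peak in both MT lists at 8.25 and 6.75 and in neither WT list, SLC9A5 in MT replicate 1 alone at 4.76 and SNRPN in MT replicate 2 alone at 3.10. ING3 and the LOC440704 primers had one in WT replicate 2 alone, at 4.02 and 3.78. BTBD19, EGR1, NOP58 and DDX10 had none in any of the 4 lists. The primers of the chromosome 1 centromere matched 2129 places and were not assigned.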

How the data were processed

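DRIP-seq of Nalm-6 cells was deposited as 1 narrowPeak list per library. Per the paper's methods, the authors mapped the libraries with BWA-MEM (GRCh38), dropped duplicates and mitochondrial reads and ran MACS2 for narrow peaks. Versions are not given in the sources used here. Each deposited list holds a score (10 times the −log10 q-value), a fold enrichment (a ratio of summit pileup to local background), and the −log10 p-value and q-value that the authors' peak caller wrote. No list held a peak with q above 0.01, although the methods name a looser cutoff. The differential test named there needs reads, which the lists lack.

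Peaks on chromosomes 1 to 22 and X were counted (Python 3.11.15, numpy 2.4.6, pandas 2.3.3, scipy 1.17.1, pyfaidx 0.9.0.4, matplotlib 3.10.9) and 234 to 1031 lines per list on other sequences were left out. Depth per library is unknown. Reads at each summit and the background were recovered from fold enrichment and p-value, and came out for 99.9% or more of the peaks of each list. Genes, start sites and 251784 transcripts came from GENCODE, and windows of 500 bases every 10 kb stood for the genome. Lists were merged where peaks touched, and a region with a peak in both lists of a genotype and neither of the other was called only in it. Per-library values were compared by a two-sided exact permutation test. Its p-value only places the observed grouping among all groupings of these samples, whose differences may be technical. The scripts were tested on simulated lists. Alternatives were a stricter q or fold, thinning to the shallowest background, GC weighting, other overlaps and leaving out each list.

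Named were the 10 MT-only and 5 WT-only regions with the highest lower fold enrichment, and the same for regions within 1 kb of a coding start site. Also named were the 10 genes with most MT-only and the 5 with most WT-only regions, the 2 to 4 leading members of each gene list, the 10 1-Mb bins with the largest change of share in each direction, and the primer loci. The lists and rules were chosen with earlier results of these data known. Exceptions are SF3B1, RAG1, ATM and other genes given as landmarks of a bin or list.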

Additional observations from a re-analysis of the deposited data

How the results depend on the processing

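Of 90 alternative values, 86 stayed within the spread or the count limit of the value reported, 4 moved and 0 reversed. The spreads came from 2 lists per genotype and could be as wide as the difference, 36.5 ± 39.3 bases for width. Staying within such a spread is a weak check. The promoter share difference was −0.28 percentage points with peaks of fold enrichment of at least 4 and −1.53 after weighting to 1 GC distribution. Genes with more peaks in MT numbered 7196 when counted as a share of each list. Regions only in WT numbered 27203 where a peak in WT replicate 2 was enough, that is, without WT replicate 1, the shallowest list. Thinning to its background kept 82.1% to 87.3% of the peaks of the other lists and left 165864 and 162643 peaks in MT against 34857 and 67590 in WT.

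Leaving out each list in turn gave a log2 ratio of 1.37 to 2.52 for peak number and 1.41 to 2.73 for covered bases. The differences ran from 9 to 64 bases for width, 1.33 to 2.33 points for GC content, −1.23 to −0.45 for promoter share and 2.90 to 11.8 for untreated overlap. Regions only in MT numbered 106638 to 152558 and only in WT 8844 to 27203, genes with more peaks in MT 14085 to 16301 and chromosomes with a higher share 7 to 10. With a list left out, these rules ask for fewer lists, so the counts cannot fall and their ranges are no check of stability. With all 4 lists they were 104531, 7702, 13893 and 7. The width difference of 9 bases came without WT replicate 1.

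Replicate numbers are shared between genotypes only as numbers, and 2 pairs are too few to check them. With the replicate block, the log2 ratios were 1.94 and 2.07 for peak number and covered bases, which changed no direction. The differences were again 36.5 bases, 1.83, −0.84 and 7.36 points. The mean of paired differences always equals the difference of the means, so these are no check of the block. Depth limits all counts, since a place without a peak may hold signal under the caller's threshold.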
